A study of Mus musculus with 6 samples.

Results

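The miRNAs described here are mmu-miR-10a-5p, mmu-miR-10b-5p, mmu-miR-196a-5p and mmu-miR-196b-5p, where mmu marks the mouse and is often left out below, the 5′ arm products of miRNA genes that lie inside the Hox clusters. They were chosen by name, and all 4 were found among the 1982 miRNAs of the count table, of which 954 had at least 1 count. The miRNAs were sequenced from exosomes, small vesicles shed by cells, which were pelleted from serum. All mice were male, of the strain C57BL/6 and 3 months old. Acu/LFES mice 4, 5 and 6 received acupuncture with low frequency electrical stimulation on the hindlimb for 30 min on a single occasion. Sham mice 1, 2 and 3 were also needled, close to the treated points, and received no current. Serum was taken mouse by mouse, each numbered library is called a mouse here, and serum can hold vesicles from many organs. Fewer vesicles from a cell type and fewer copies of a miRNA in each vesicle cannot be told apart in these counts.

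Hox genes encode transcription factors that set position along the body axis, and they are arranged in clusters whose order on the chromosome matches their order of expression from head to tail. The miR-10 and miR-196 genes sit between Hox genes and are expressed in overlapping domains of the embryo and, later, in tissues of the trunk and hindlimb. A miRNA guides repression of mRNAs mainly through its seed, bases 2 to 8 from the 5′ end. miR-196 is a textbook case because it pairs with the Hoxb8 mRNA along almost its whole length and directs its cleavage.

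The mature sequences are shown first because the members differ so little that their reads could be shared. RefSeq held all 4 members, and the seed is in capitals.
miR-10a-5p: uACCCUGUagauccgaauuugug
miR-10b-5p: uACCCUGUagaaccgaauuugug
miR-196a-5p: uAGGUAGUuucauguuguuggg
miR-196b-5p: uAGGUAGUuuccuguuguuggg
Counted from 1 at the 5′ end, miR-10b-5p differs from miR-10a-5p by U12A alone, and miR-196b-5p differs from miR-196a-5p by A12C alone. Both changes lie outside the seed. Among 1679 mature mouse miRNAs in RefSeq, 2 have the seed ACCCUGU and 2 have the seed AGGUAGU, which are the members themselves. The counting rules for reads with a mismatch are not given in the sources used here, so the counts within each pair, and their sums where a read was counted in both rows or in neither, are uncertain.

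The sequences place the members beside other miRNAs of this study. The nearest relatives of miR-10 outside the Hox clusters are miR-99a-5p, miR-99b-5p and miR-100-5p, and the capitals mark the longest run of bases that each shares with miR-10a-5p.
miR-99a-5p: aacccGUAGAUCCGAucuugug
miR-99b-5p: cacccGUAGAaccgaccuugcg
miR-100-5p: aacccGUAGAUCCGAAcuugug
Runs shared with miR-10b-5p are not marked, and miR-99b-5p shares the longer run GUAGAACCGA with that member. Their seed, common to miR-99a-5p, miR-99b-5p and miR-100-5p, is ACCCGUA, so they are relatives in sequence with another seed. The whole miR-196 seed also stands inside let-7c-5p, the miRNA at the centre of the study, at bases 3 to 9.
let-7c-5p: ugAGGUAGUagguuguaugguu
The letters AGGUAGU occur anywhere in 13 of the 1679 mature miRNAs, 7 of them named let-7. Also among the 13 are miR-98-5p and miR-1961, which have the same seed as let-7c-5p. The seed of let-7c-5p is GAGGUAG, which is shifted by a base from that of miR-196.

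The genes are spread over all 4 Hox clusters in GRCm38.p6 (positions of the mature miRNA from RefSeq, neighbouring genes from GENCODE M21). miR-10a-5p lies at chr11:96317186-96317208 on the plus strand, between Hoxb5 and Hoxb4, and its hairpin ends 993 bases before Hoxb4. miR-10b-5p lies at chr2:74726074-74726096 on the plus strand, in an intron of the annotated genes Hoxd3 and Hoxd4. miR-196a-5p comes from a pair of genes. The copy at chr11:96265187-96265208 is between Hoxb13 and Hoxb9, 6192 bases before Hoxb9, and the copy at chr15:102973365-102973386 is between Hoxc10 and Hoxc9 in an intron of the long annotated gene Hoxc5, both on the plus strand. miR-196b-5p lies at chr6:52230129-52230150 on the minus strand, and its hairpin overlaps an annotated exon of Hoxa9. Reads of miR-196a-5p cannot be assigned to either of its genes, since both give the same mature sequence.

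The known target of miR-196 in the Hox clusters was read from the same annotation. In the Hoxb8 transcript with the longer annotated 3′-UTR, bases 418 to 439 of that UTR, at chr11:96284888-96284909, can pair with miR-196a-5p at 21 of 22 positions, and the capitals mark the bases complementary to it.
Hoxb8 site: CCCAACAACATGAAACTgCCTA
The base in lower case is a G opposite the U at position 5 of the miRNA, which can form a wobble pair. This is a match of letters, and no mRNA was measured here.

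Library totals ranged from 391708 to 658833 counts in sham mice and from 517421 to 1504137 in Acu/LFES mice. These totals and the shares below are taken over the rows as deposited, so reads listed in identical rows are counted in each. The red-cell miRNAs miR-486a-5p and miR-486b-5p, listed with identical counts, took 61.7% to 74.0% of the counts in sham mice, but 61.9%, 73.5% and 29.2% in Acu/LFES mice 4, 5 and 6. Levels are therefore given as normalized counts on the usual CPM scale, after scaling each library by edgeR's TMM factor, which rests on the miRNAs that change least and was 2.12 in mouse 6 against 0.65 to 1.11 in the others. A level of 3 counts, taken as the smallest that shows a miRNA, stood between 1.80 CPM in mouse 4 and 9.93 CPM in mouse 3. Of the marker miRNAs for other sources of blood RNA, 13 were listed and 12 tested, with the identical miR-486a-5p and miR-486b-5p both counted. In edgeR's quasi-likelihood test 0 of 12 had an unadjusted p under 0.05 between the groups, against 8.88% of all miRNAs tested. The red-cell miR-451a did not share the low level of miR-486 in mouse 6, at 943 CPM against 692 to 1907 CPM in the others. miR-144-3p, the untested red-cell marker, had at most 3 counts in a mouse. The groups overlapped in 11 of the 12, miR-126a-3p of the endothelium among them, and did not overlap in 17.0% of all miRNAs tested. Every Acu/LFES mouse was below every sham mouse in the endothelial miR-126a-5p, as in 8.11% of all miRNAs tested. No marker listed here is particular to exosomes.

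In none of the 4 Hox-cluster miRNAs was the difference between sham and Acu/LFES mice larger than the spread between mice. All 4 had enough counts to be tested, 2 had a log2 fold change above 0 and 2 below, and sham and Acu/LFES mice overlapped in each of them. By the quasi-likelihood test of edgeR, adjusted over all miRNAs tested by the Benjamini-Hochberg method, 0 of 4 members had an adjusted p under 0.05, as did 0 of all 259 miRNAs tested (0%), and 0 of 4 had an unadjusted p under 0.05 against 8.88% of all miRNAs tested (5.79% higher and 3.09% lower in Acu/LFES mice). DESeq2, an alternative test, called 5.41% of the 148 miRNAs to which it gave an adjusted p, which included neither miR-10 member, and it gave no adjusted p for the miR-196 members. The groups did not overlap in 17.0% of all miRNAs tested and in none of the members. The median log2 fold change was -0.07 over the members and 0.05 over all miRNAs tested.

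mmu-miR-10b-5p was the most counted member, ranking between 56 and 64 by count among all rows in every mouse. Its counts were 427, 261 and 196 for sham mice 1, 2 and 3, and 988, 373 and 594 for Acu/LFES mice 4, 5 and 6. After scaling, its level was 617, 610 and 649 CPM in the sham mice and 593, 777 and 543 CPM in the Acu/LFES mice. Acu/LFES mouse 5 was the highest and mouse 6 the lowest of all, so the sham mice lay between the Acu/LFES mice. The mean was 625 ± 20.8 CPM for sham and 638 ± 123 CPM for Acu/LFES (± SD, n = 3 mice). The log2 fold change of Acu/LFES over sham was 0.03 (standard error 0.25, 95% interval -0.53 to 0.58, adjusted p = 0.983, edgeR).

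The level of miR-10b-5p was among the most even in the data. Its coefficient of variation over the 6 mice was 12.6%, against a median of 47.1% over the miRNAs tested, of which 5 varied less. Among the 30 other miRNAs tested whose mean level was within 2-fold of its own, 1 varied less, and the median of these neighbours was 34.6%. Within the sham mice alone its coefficient of variation was 3.32%, with 4 of the 259 miRNAs lower, and within the Acu/LFES mice it was 19.3%, with 58 lower. This evenness depended on the scaling. With total counts in place of TMM factors, an alternative added after the values were seen, the coefficient of variation of miR-10b-5p was 39.3%, with 33 miRNAs lower and a median of 64.7%, and that of miR-10a-5p was 32.2%, so that miR-10a-5p was then the more even of the pair. It stayed between 12.5% and 15.4% with the other 3 scalings tried.

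mmu-miR-10a-5p, which shares the seed of miR-10b-5p, was less even on the TMM scale. With sham first, its counts were 290, 182, 230 and then 487, 267, 338 for Acu/LFES, with ranks by count between 54 and 86. Its level was 419, 425 and 762 CPM in sham mice 1, 2 and 3 and 292, 556 and 309 CPM in Acu/LFES mice 4, 5 and 6. Mice 4 and 6 were below every sham mouse, but mouse 5 was above sham mice 1 and 2, and sham mouse 3 was the highest of all. The mean was 535 ± 196 CPM for sham and 386 ± 148 CPM for Acu/LFES (± SD, n = 3 mice). The log2 fold change was -0.47 (standard error 0.37, 95% interval -1.30 to 0.35, adjusted p = 0.786, edgeR). It was -0.11 without sham mouse 3, -0.80 without Acu/LFES mouse 5 and 0.08 with total counts in place of TMM factors.

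The interval of miR-10a-5p reaches from a fall of more than a log2 unit to a small rise. With 3 mice in each group, its lower mean in Acu/LFES mice could not be told from no change. Its coefficient of variation over the 6 mice was 38.1%, and 97 of the 259 miRNAs tested varied less. The summed count of miR-10a-5p and miR-10b-5p was 717, 443 and 426 in sham mice and 1475, 640 and 932 in Acu/LFES mice. On the CPM scale the sum had a mean of 1169 ± 241 for sham and 1019 ± 269 for Acu/LFES (± SD, n = 3 mice). Its log2 fold change was -0.20 (standard error 0.27, 95% interval -0.80 to 0.41, adjusted p = 0.867, edgeR, with both rows replaced by their sum).

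**Figure D1:**
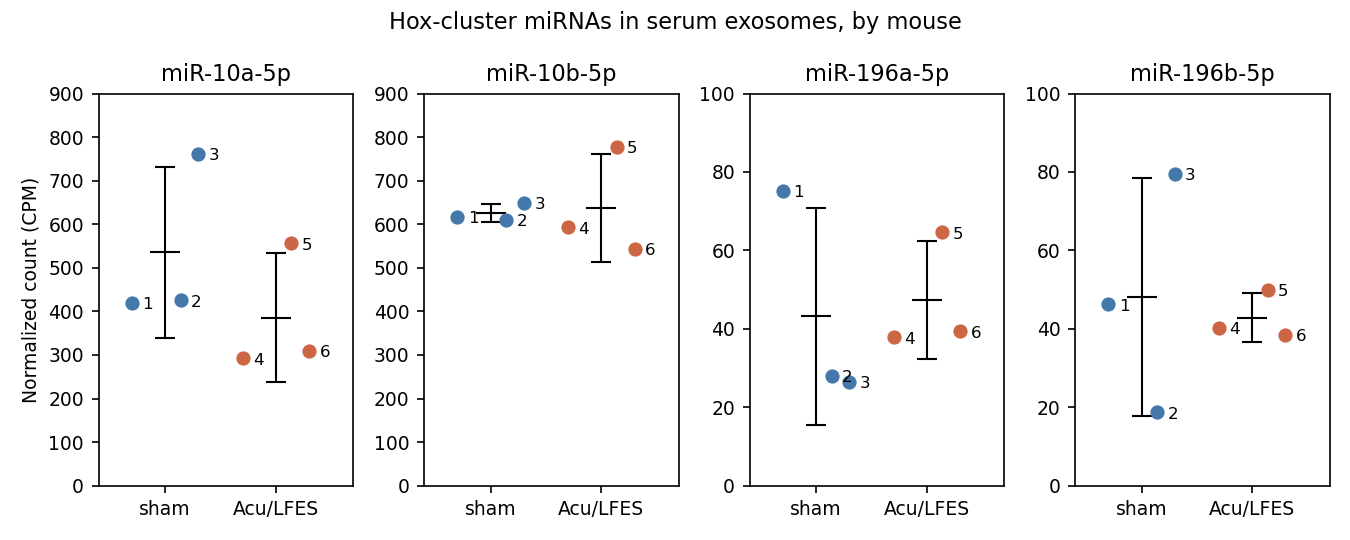
Normalized count in CPM (linear axes from 0, with separate ranges for miR-10 and miR-196) of each member in sham mice 1 to 3 (blue) and Acu/LFES mice 4 to 6 (orange), each point a numbered mouse, with the group mean and SD in black. The groups overlap in every panel, the 3 sham mice of miR-10b-5p lie between 610 and 649 CPM, and sham mouse 3 is the highest mouse for miR-10a-5p and miR-196b-5p.

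miR-196a-5p and miR-196b-5p were well below miR-10. The summed counts of miR-10a-5p and miR-10b-5p were between 8.54 and 22.2 times those of miR-196a-5p and miR-196b-5p in each mouse, with a median of 11.5. The mature lengths are 23 bases for miR-10 and 22 for miR-196, and how well each sequence is ligated and amplified was not tested. Every mouse of either group had miR-10 above miR-196.

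mmu-miR-196a-5p was counted 52, 12 and 8 times in the sham libraries, against 63, 31 and 43 in those of Acu/LFES mice. Its level was 75.1, 28.1 and 26.5 CPM in sham mice 1, 2 and 3 and 37.8, 64.6 and 39.3 CPM in Acu/LFES mice 4, 5 and 6. Sham mouse 1 was the highest and sham mice 2 and 3 were the lowest, with the Acu/LFES mice between them. The mean was 43.2 ± 27.6 CPM for sham and 47.2 ± 15.0 CPM for Acu/LFES (± SD, n = 3 mice). The log2 fold change was 0.10 (standard error 0.77, 95% interval -1.61 to 1.81, adjusted p = 0.974, edgeR). It was 0.81 without sham mouse 1 and turned negative without sham mouse 2 or 3 or Acu/LFES mouse 5, at most to -0.15.

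mmu-miR-196b-5p was counted 32, 8 and 24 times in the sham libraries, against 67, 24 and 42 in those of Acu/LFES mice. Its level was 46.2, 18.7 and 79.5 CPM in sham mice 1, 2 and 3 and 40.2, 50.0 and 38.4 CPM in Acu/LFES mice 4, 5 and 6. The Acu/LFES mice were close together and lay inside the range of the sham mice. The mean was 48.1 ± 30.4 CPM for sham and 42.9 ± 6.25 CPM for Acu/LFES (± SD, n = 3 mice). The log2 fold change was -0.16 (standard error 0.78, 95% interval -1.89 to 1.57, adjusted p = 0.967, edgeR). It was 0.39 without sham mouse 3 and -0.55 without sham mouse 2, and 0.40 with total counts in place of TMM factors.

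The intervals of both miR-196 members spanned more than 3 log2 units. Their coefficients of variation were 63.9% and 63.2% within the sham mice, against 31.9% and 14.6% within the Acu/LFES mice, for miR-196a-5p and miR-196b-5p in turn. Their sum had a mean of 92.0 ± 39.9 CPM for sham and 89.6 ± 21.1 CPM for Acu/LFES (± SD, n = 3 mice). The log2 fold change was -0.04 (standard error 0.57, 95% interval -1.32 to 1.23, adjusted p = 0.989, edgeR). The order of the members by mean level over the tested miRNAs was miR-10b-5p at rank 60, miR-10a-5p at 67, miR-196b-5p at 170 and miR-196a-5p at 172. The gap between miR-10 and miR-196 was larger than the spread between mice. The gap between miR-196a-5p and miR-196b-5p was smaller than that spread.

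**Figure D2:**
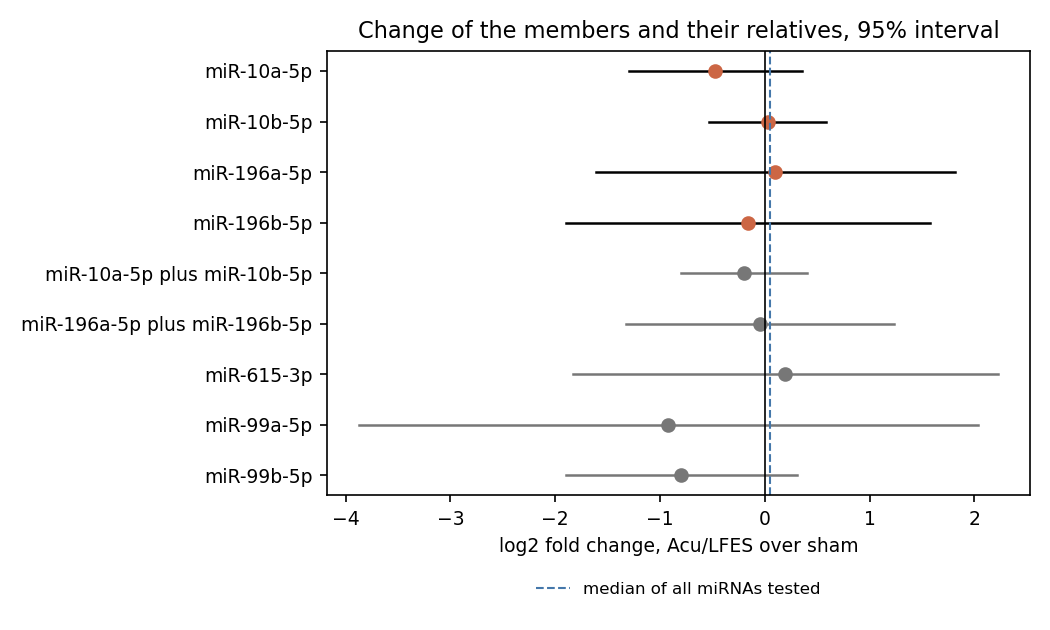
Log2 fold change of Acu/LFES over sham (points) with the 95% interval from edgeR's quasi-likelihood test (lines) for the 4 members (orange), their sums and the tested relatives (grey), with the median of all miRNAs tested as a dashed line at 0.05. Every interval includes 0, and miR-10b-5p has the narrowest, from -0.53 to 0.58.

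The balance of the members within a pair was compared inside each library, where no scaling is needed. miR-10b-5p took 59.6%, 58.9% and 46.0% of the miR-10 counts in sham mice 1, 2 and 3 and 67.0%, 58.3% and 63.7% in Acu/LFES mice 4, 5 and 6. Sham mouse 3 was the only mouse in which miR-10a-5p had more counts than miR-10b-5p, and its 95% Wilson interval, 41.3% to 50.8%, did not reach that of any other mouse, the lowest of which began at 54.3%. Such intervals cover counting error only, since reads amplified by PCR are not separate molecules. On the log2 scale the ratio of miR-10b-5p to miR-10a-5p had a mean of 0.28 ± 0.44 for sham and 0.77 ± 0.27 for Acu/LFES (± SD). By an exact permutation test, two-sided, p was 0.3, and 0.75 after adjustment over 5 such measures. With 3 mice in each group this test cannot give a p below 0.1. The difference was 0.49 and stayed between 0.23 and 0.63 with each mouse left out in turn.

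Sham mouse 3 also had the lowest share in the miR-196 pair, on few counts. miR-196a-5p took 61.9%, 60.0% and 25.0% of the miR-196 counts in sham mice 1, 2 and 3 and 48.5%, 56.4% and 50.6% in Acu/LFES mice 4, 5 and 6. The share of mouse 3 rests on 8 of 32 counts, with a 95% Wilson interval of 13.3% to 42.1%, which overlaps those of mice 2, 4 and 6. Over all mice the miR-196 counts were split almost evenly, with 51.5% on miR-196a-5p, and the miR-10 counts were 61.3% on miR-10b-5p. Mouse 3 had the smallest library, and the part of depth in its shares was not tested.

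**Figure D3:**
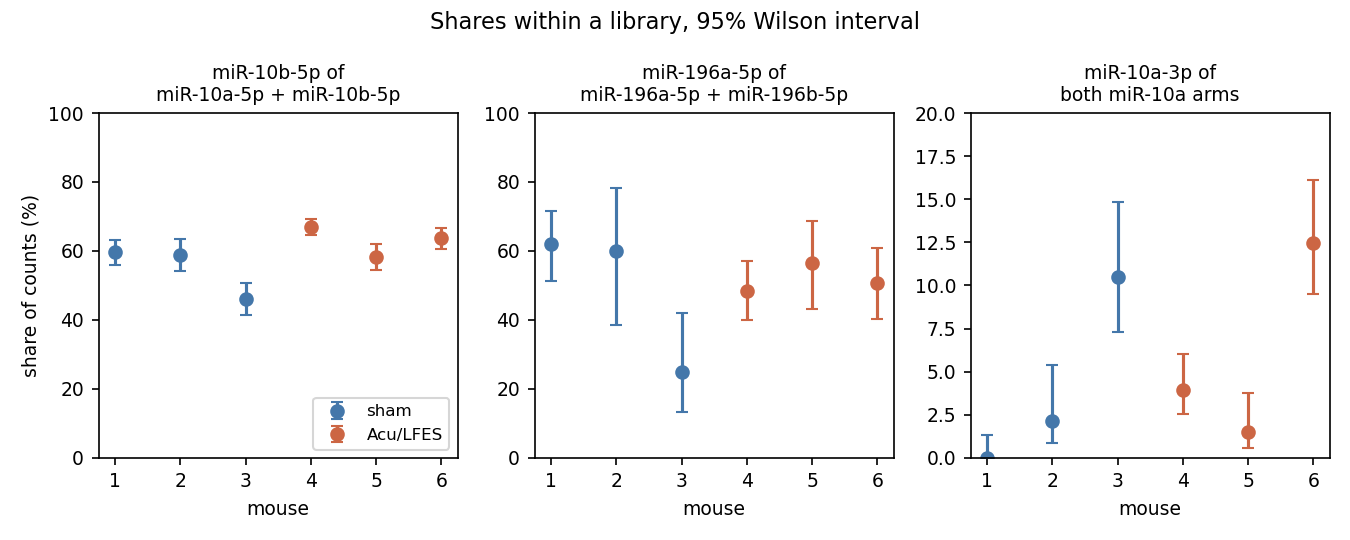
Share of counts in percent (vertical axis, from 0 to 100 in the left and middle panels and from 0 to 20 in the right one) by mouse, with sham mice in blue, Acu/LFES mice in orange and 95% Wilson intervals as bars. Mouse 3 has the lowest share of miR-10b-5p, 46.0%, and of miR-196a-5p, 25.0%, and mice 3 and 6 have the highest share of miR-10a-3p, 10.5% and 12.4%.

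The miR-10 sum was next set against other miRNAs in the same library. Its log2 ratio to the sum of miR-99a-5p, miR-99b-5p and miR-100-5p was 2.51, 2.62 and 3.34 in sham mice and 2.96, 3.77 and 3.47 in Acu/LFES mice. The mean was 2.82 ± 0.45 for sham and 3.40 ± 0.41 for Acu/LFES (± SD), a difference of 0.58, but mouse 3 was above mouse 4 (exact permutation p = 0.2, adjusted p = 0.75). The log2 ratio to miR-103-3p, used by the study to normalize serum qPCR, was 0.50 ± 0.90 for sham and 0.43 ± 0.68 for Acu/LFES (exact permutation p = 0.9, adjusted p = 0.9). The log2 ratio to miR-16-5p, an abundant blood miRNA, was -2.73 ± 0.28 for sham and -3.05 ± 0.70 for Acu/LFES (exact permutation p = 0.5, adjusted p = 0.75). The miR-10 pair took 0.0672% to 0.115% of all counts in sham mice and 0.0981% to 0.180% in Acu/LFES mice, with the highest share in mouse 6, where miR-486 was lowest (exact permutation p = 0.6, adjusted p = 0.75). In each of the 5 measures the groups overlapped.

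Of the miR-99/100 relatives, 2 of 3 had enough counts to be tested, and 0 of 2 passed an adjusted or an unadjusted p of 0.05. miR-99b-5p stood at 166, 101 and 126 CPM for sham, and at 81.0, 81.3 and 64.0 CPM for Acu/LFES. Every Acu/LFES mouse was below every sham mouse, a pattern seen in 8.11% of all miRNAs tested. Its log2 fold change was -0.80 (standard error 0.49, adjusted p = 0.685, edgeR). miR-99a-5p had between 0 and 37 counts in a mouse and a log2 fold change of -0.92 with a standard error of 1.32. miR-100-5p had at most 17 counts in a mouse and was not tested.

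The opposite arms of the same hairpins had few counts. Of 7 other mature miRNAs from the Hox clusters, 3 had 0 counts in every mouse, namely miR-10b-3p, miR-196a-1-3p and miR-196a-2-3p, and only miR-615-3p, from a gene in the Hoxc cluster, had enough counts to be tested. miR-615-3p had 11, 5 and 2 counts in sham mice and 14, 11 and 11 in Acu/LFES mice, and its log2 fold change was 0.19 (standard error 0.91, adjusted p = 0.967, edgeR). miR-196b-3p had 10 counts in mouse 4 and 0 elsewhere, and miR-615-5p had 8 counts in mouse 3 and 1 in mouse 4. For miR-10b, 0 counts on the 3′ arm against 2839 on the 5′ arm, pooled over the 6 mice, allow a 3′ share of up to 0.106%. This limit of 3 counts covers counting error only and not the spread between mice.

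miR-10a was the exception, with 103 counts on its 3′ arm. The sequences of both 3′ arms are shown because the 3′ arm of miR-10a was counted and that of miR-10b was not, with the bases of the seed in capitals.
miR-10a-3p: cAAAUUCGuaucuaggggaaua
miR-10b-3p: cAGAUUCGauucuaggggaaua
miR-10a-3p had 0, 4 and 27 counts in sham mice 1, 2 and 3 and 20, 4 and 48 counts in Acu/LFES mice 4, 5 and 6. It took 10.5% of the counts of both miR-10a arms in sham mouse 3 and 12.4% in Acu/LFES mouse 6, but 0% to 3.94% in the other 4 mice. The 95% Wilson intervals of mice 3 and 6 began at 7.32% and 9.51%, above the highest upper bound of the others, 6.01%. In sham mouse 1, 0 of 290 counts allows a share of up to 1.03% by the limit of 3 counts, and the upper Wilson bound was 1.31%. The high mice were in different groups, and miR-10a-3p was not tested between them, since it did not pass the filter on low counts. The liver miRNA miR-122-5p was also highest in mice 3 and 6, at 20871 and 15343 CPM against 1697 to 8564 CPM in the others. So was miR-206-3p of skeletal muscle, at 1699 and 837 CPM against 323 to 591 CPM. The skeletal muscle miR-1a-3p and miR-133a-3p did not have this pattern. The part of either source in the miR-10a-3p share was not tested.

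The tested miRNAs whose levels differed least from each miR-10 member were found from the root mean square difference of log2 CPM. Each was centred on its own mean over the 6 mice. For a member as even as miR-10b-5p, any other even miRNA scores low, so its nearest miRNAs need not rise and fall with it. Nearest to miR-10a-5p were miR-191-5p at 0.16, miR-486a-3p at 0.23 and miR-486b-3p at 0.23, against a median of 0.83 over 258 miRNAs. Nearest to miR-10b-5p were miR-192-5p at 0.14, miR-128-3p at 0.15 and miR-1198-5p at 0.16, against a median of 0.69. The members were not each other's closest match. Their difference was 0.39, which put miR-10b-5p at rank 11 for miR-10a-5p and miR-10a-5p at rank 55 for miR-10b-5p. All these values share the 6 libraries and their scaling and describe these mice only.

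The small differences were recomputed under other scalings between libraries. With total counts in place of TMM factors, the median over the 259 miRNAs moved from 0.05 to 0.71 on the log2 scale, and the members were at 0.08 for miR-10a-5p, 0.60 for miR-10b-5p, 0.50 for miR-196a-5p and 0.40 for miR-196b-5p. Relative to the median of the same scaling they were at -0.63, -0.11, -0.21 and -0.31, against -0.52, -0.02, 0.05 and -0.21 with TMM factors, so only miR-196a-5p changed sign relative to the other miRNAs. The adjusted p of every member was over 0.05 in edgeR's quasi-likelihood test under every scaling and filter in which it could be tested.

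**Figure D4:**
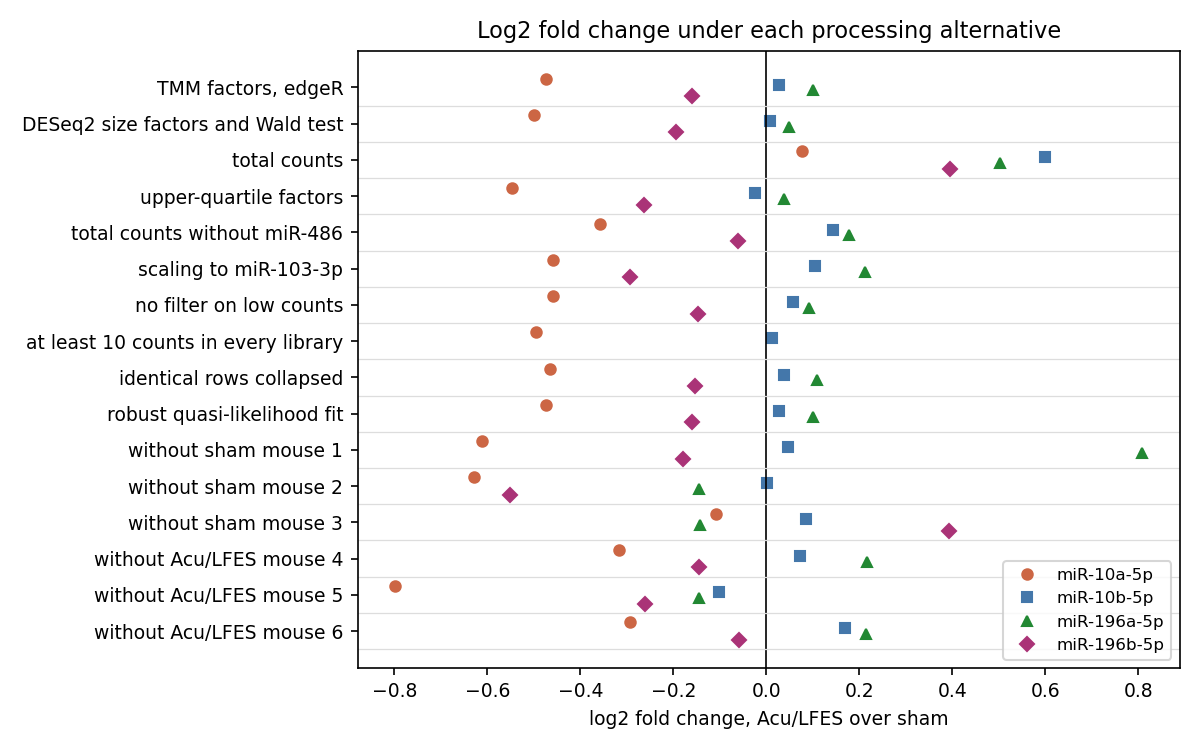
Log2 fold change of Acu/LFES over sham (horizontal axis) of each member under the reported fit (top row) and each alternative scaling, filter or left-out mouse, with a symbol for each member. With total counts all 4 members lie above 0, miR-10a-5p is below 0 in every other row, and miR-196a-5p reaches 0.81 without sham mouse 1.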

How the data were processed

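Small RNA libraries of serum exosomes from 3 sham and 3 Acu/LFES mice were grouped by their labels. The mice carry their own numbers and were not paired. The authors deposited raw counts per mature miRNA without normalization. The submitters' processing notes name bcl2fastq 1, cutadapt 1.6 and DESeq2 1.26.0. The aligner, the miRNA annotation and the mismatches allowed are not given in the sources used here.

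miRNAs with low counts were removed by edgeR's default filter (edgeR 4.0.16, R 4.3.3), libraries were scaled by TMM factors, and groups were compared by the quasi-likelihood test, with p adjusted over all 259 miRNAs tested by the Benjamini-Hochberg method at 0.05. Standard errors were taken from the F statistic. Alternatives were DESeq2 1.42.0, other scalings and filters, a robust fit and leaving out each mouse. Ratios within a library were compared by exact permutation tests with scipy 1.17.1. The likeness of patterns used log2 of CPM plus 0.5. The fit was tested on simulated data, with the same spread for every miRNA and the same composition in every library except for added changes. Libraries as unlike in composition as these were not simulated. No pair of libraries differed by as little as counting noise, with chi-square per degree of freedom from 36.4 to 872.6. The p-values weigh a difference between the groups against the differences between these mice. In edgeR the spread of a miRNA is estimated partly from all miRNAs tested.

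The miRNAs named are the 4 members, the other Hox-cluster arms, miR-99/100, 2 references, marker miRNAs of other cells and the 3 miRNAs most like each miR-10 member. Members and lists were chosen with earlier results of these data known. miR-196b-5p and miR-196a-5p had fewer than 10 counts in some libraries and drop out of the stricter filter.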

Additional observations from a re-analysis of the deposited data

How the results depend on the processing

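No paired analysis was possible because sham and Acu/LFES mice share no number. Each result was recomputed under each alternative that could give it, 124 values in all beside the counts of calls. Of these, 105 had the reported direction, 19 the opposite one, and 0 passed the threshold, with the adjusted p of miR-10a-5p between 0.535 and 0.999. The within-library ratios and shares among them could not pass it, since their exact permutation p cannot be below 0.1. With total counts the log2 fold change turned to 0.077 for miR-10a-5p, 0.40 for miR-196b-5p, 0.38 for the miR-10 sum and 0.45 for the miR-196 sum, while the median of all miRNAs moved to 0.71. With upper-quartile factors miR-10b-5p turned to -0.024, and with miR-486 left out of the totals the miR-196 sum turned to 0.062 and the percent of counts taken by miR-10 turned from 0.030 to -0.014 percentage points. The cause of these changes was not tested. With each mouse left out, the log2 values lay from -0.80 to -0.11 for miR-10a-5p, from -0.10 to 0.17 for miR-10b-5p, from -0.15 to 0.81 for miR-196a-5p, from -0.55 to 0.39 for miR-196b-5p, from -0.38 to 0.0080 for the miR-10 sum and from -0.35 to 0.25 for the miR-196 sum. The miR-10 ratios went from 0.39 to 0.84 against miR-99/100, from -0.52 to 0.38 against miR-103-3p and from -0.71 to -0.03 against miR-16-5p. DESeq2's Wald test called 8 miRNAs at an adjusted p under 0.05, none of them a member, where edgeR's quasi-likelihood test called 0, against 23 at an unadjusted p under 0.05. DESeq2 gave no adjusted p for either miR-196 member. The calls at an unadjusted p under 0.05 were 15 higher and 8 lower with TMM factors, 23 and 0 with total counts, 20 and 6 without miR-486 in the totals, and 7 and 0 with scaling to miR-103-3p. With no filter 53 miRNAs had such a p. The filter of 10 counts in every library gave no value for miR-196a-5p or miR-196b-5p.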
